A study of Homo sapiens with 24 samples.

Results

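Expression of 9 genes that place B cells inside lymphoid tissue was read from 24 microarrays of KARPAS-422, a human diffuse large B-cell lymphoma line. The 9 are the chemokine receptors CXCR4, CXCR5, CCR6 and CCR7, the sphingosine-1-phosphate (S1P) receptors S1PR1 and S1PR2, the oxysterol receptor GPR183, the migration-inhibiting receptor P2RY8, and GNA13, the G protein alpha subunit through which S1PR2 and P2RY8 signal. They were chosen by name among the 19775 genes that have a probe set with a single gene symbol, and the probe set brightest over the 24 arrays stands for each gene. All 9 were found, with 15 probe sets between them.

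The groups were cultures given DMSO, the solvent control, or an EZH2 inhibitor at 5 uM, each for 1, 2, 3 or 6 days, with 3 replicates labelled as biological in each of the 8 groups. All groups share the EZH2 genotype Y641N, a change in the catalytic domain of the histone H3 lysine methyltransferase of Polycomb repressive complex 2. The data come from 1 cell line and 1 inhibitor, whose compound name the labels do not give, so a group is a model of this line under this dose. Values are log2 expression made by RMA. A difference subtracts the DMSO mean from the inhibitor mean at 1 day, over 3 arrays each, and its ± is limma's standard error (SE). A gene was called when limma's adjusted p, taken over all 19775 genes, was under 0.05, and rose and fell are used of called genes. In a culture measured as a whole, a larger share of cells with a transcript and more transcript per cell cannot be told apart.

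B cells move through follicles by reading gradients with receptors coupled to G proteins. CXCR4, the receptor for CXCL12, holds germinal centre B cells in the dark zone, while CXCR5, the receptor for CXCL13, draws B cells into the follicle and the light zone. CCR7 and GPR183 guide cells toward the T cell border and the follicle's edge, CCR6 marks memory precursors and answers CCL20, and S1PR1 directs exit into lymph and blood. S1PR2 and P2RY8 act in the opposite way: through GNA13 they stop migration and confine cells to the germinal centre, and this inhibitory arm is recurrently mutated in germinal centre lymphomas.

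The arrays were alike in their overall level, with medians of 4.96 to 5.03, and arrays of a group correlated at 0.995 to 0.998 over genes. No pair of arrays held identical values. The B lineage markers were all among the brighter genes (none in the dimmest 40% by mean), with means of 12.63 for MS4A1 and 11.70 for PAX5, and the germinal centre marker BCL6 had a mean of 12.72. Among markers of other cells, all 6 measured myeloid genes lay among the dimmest 40%, and 3 of 6 T cell genes did, while CD3G at 10.95 and CD3D at 7.12 were brighter. The EZH2 transcript fell by 0.64 ± 0.12 at day 6 (adjusted p = 8.9e-05) and was not called at days 1, 2 or 3.

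CXCR4 showed the widest range among the 9 genes. In DMSO it read 3.60 to 4.45 at every day. On the probe set read here it rose with the inhibitor from day 2 onward. At day 6 its log2 difference of 5.30 was the largest of the 9 genes. Brightness was judged over all arrays, those with the inhibitor included. In DMSO this probe set had the lowest mean of the CXCR4 probe sets at every day (3.94 against 4.16 and 4.05 at day 6). Its choice thus rests on the inhibitor arrays, and the other CXCR4 probe sets gave smaller differences at day 6, 3.53 and 3.57. The DMSO level on the chosen probe set lay below the array medians and has no detection call, so no exact fold over it is given. At day 1 the DMSO arrays read 3.74, 3.80 and 4.36 and the inhibitor arrays 4.62, 4.65 and 5.00. At day 2 the DMSO arrays read 3.79, 3.60 and 4.08 and the inhibitor arrays 4.91, 4.65 and 5.75. The inhibitor arrays lay above the DMSO arrays on both days, with the day 1 difference short of a call. At day 3 the DMSO arrays read 3.72, 3.72 and 3.75 against 5.92, 5.83 and 7.11 with the inhibitor. At day 6 they read 3.68, 3.69 and 4.45 against 8.36, 9.38 and 9.98. On this probe set the groups did not overlap at any of the 4 days, and replicate 3 was the highest array in 8 of 8 groups. The share of all genes without overlap was counted at day 6 only, where it was 52.2%.

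The differences of CXCR4 were 0.79 at day 1 (adjusted p = 0.76), 1.28 at day 2 (adjusted p = 0.038), 2.56 at day 3 (adjusted p = 1.9e-05) and 5.30 at day 6 (adjusted p = 5.7e-11), each with an SE of 0.35. The 95% interval at day 6 ran from 4.57 to 6.03. The call at day 2 rested on single arrays: it was lost without DMSO replicate 1 (adjusted p = 0.10), 2 (0.14) or 3 (0.057) and without inhibitor replicate 1 (0.061) or 3 (0.21). The calls at days 3 and 6 were kept without any 1 array of that day. Within the inhibitor arm day 6 exceeded day 1 by 4.49 ± 0.35 (adjusted p = 9.2e-10), while within the DMSO arm the same days differed by -0.03 ± 0.35 (adjusted p = 0.99). The difference between arms was larger at day 6 than at day 1 by 4.51 ± 0.50 (adjusted p = 4.5e-07).

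**Figure D1:**
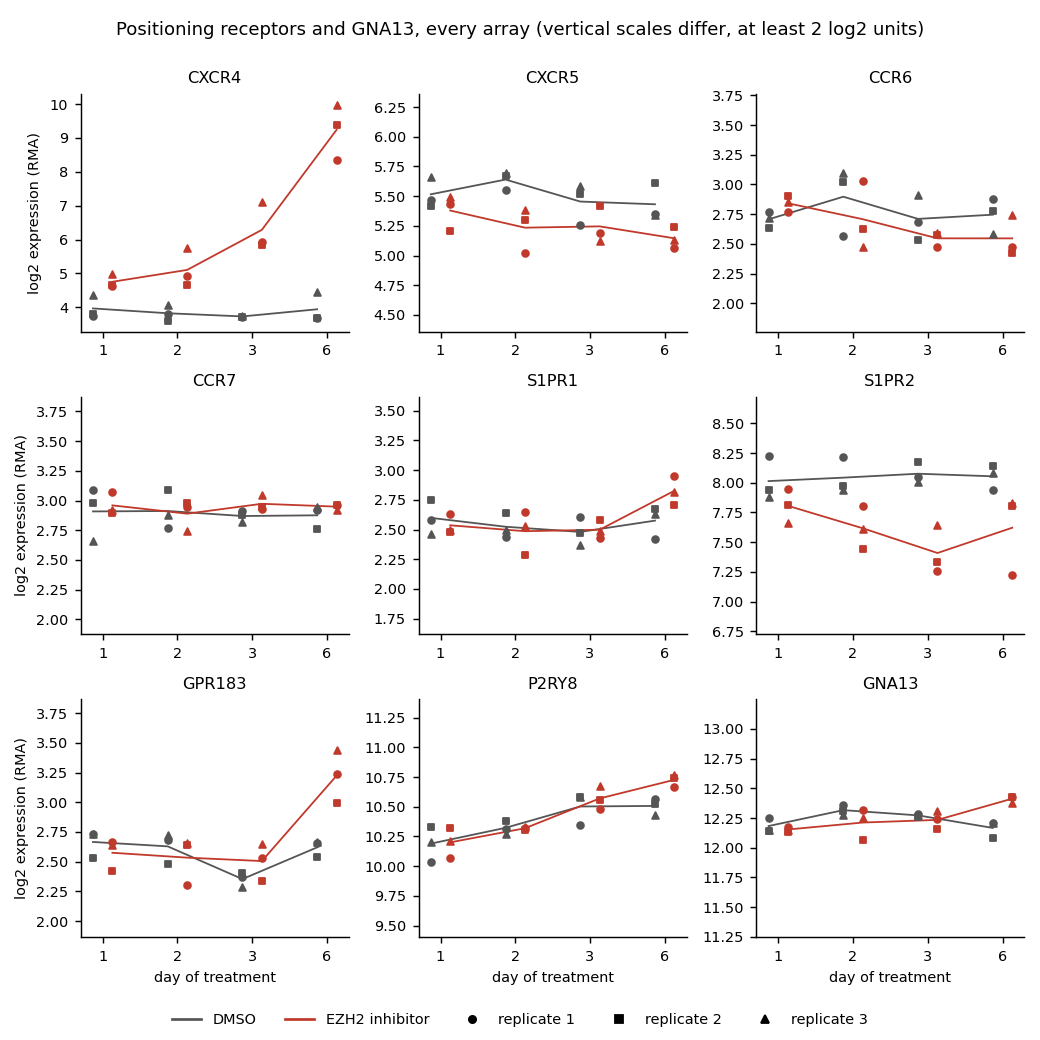
Log2 expression (vertical axes) of the 9 genes on every array against day of treatment (evenly spaced, days 1, 2, 3 and 6), with DMSO in grey, the EZH2 inhibitor in red, a marker shape per replicate number and lines through the group means. CXCR4, not called at day 1, reaches a mean of 9.24 at day 6 against 3.94 in DMSO, S1PR2 lies lower with the inhibitor, GPR183 parts from DMSO at day 6, and CCR7 stays within 2.66 to 3.09 on all 24 arrays.

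CXCR4 has 3 probe sets, and all rose at day 6. The suffixes _x_at and _s_at mark sets whose probes can match further transcripts. The differences were 5.30 for 217028_at, 3.53 ± 0.34 for 209201_x_at (adjusted p over all probe sets = 2.4e-08) and 3.57 ± 0.38 for 211919_s_at (adjusted p over all probe sets = 1.1e-07). On 209201_x_at the day 6 arrays read 4.09, 4.16 and 4.23 in DMSO and 6.78, 7.87 and 8.42 with the inhibitor. On 211919_s_at they read 3.81, 3.94 and 4.42 against 6.69, 7.74 and 8.45. The order of the 3 inhibitor replicates at day 6 was the same on every probe set, with replicate 1 lowest and replicate 3 highest. The earlier days differed between probe sets. At day 1 the differences were -0.02 for 209201_x_at and 0.14 for 211919_s_at, and at day 2 they were 0.89 and 0.59, with overlapping arms on both days and no call. At day 3 the differences were 2.56 for 217028_at, 0.88 for 209201_x_at and 1.19 for 211919_s_at, and 209201_x_at was not called (adjusted p = 0.11). The size of the change differed between probe sets, and its direction at day 6 did not. At day 3, 10.3% of all 54613 probe sets were called, and at day 6, 36.7%.

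**Figure D2:**
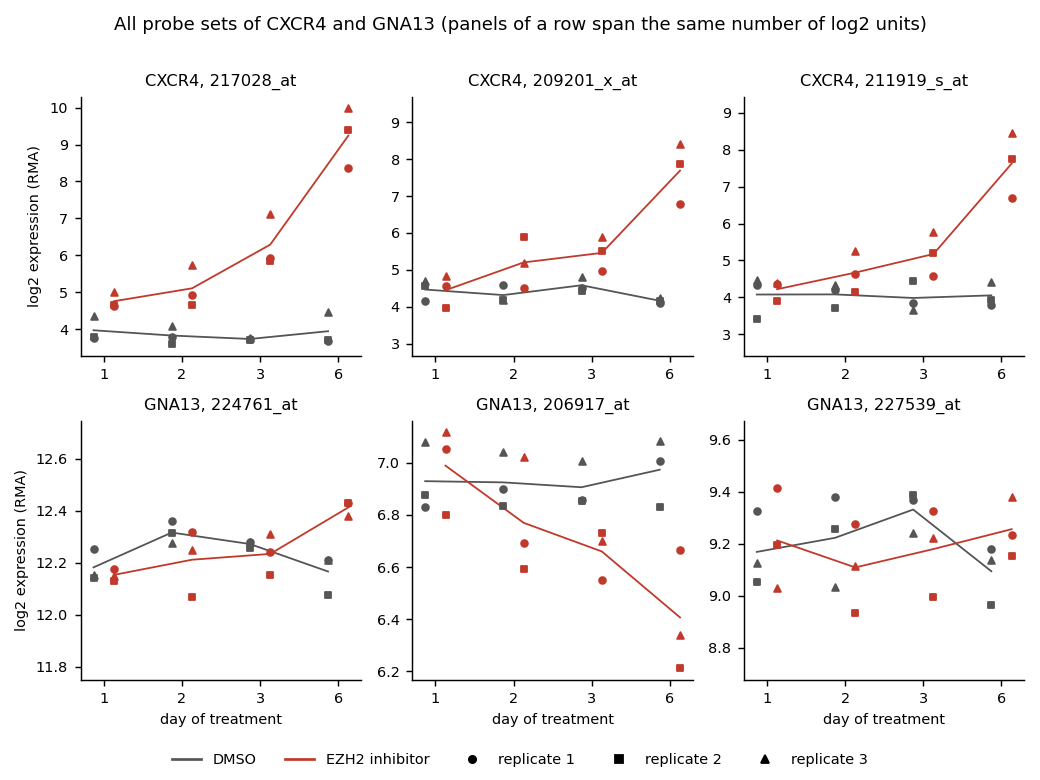
Log2 expression on every array for the 3 probe sets of CXCR4 (top row) and the 3 of GNA13 (bottom row) against day of treatment, with DMSO grey, inhibitor red, a marker shape per replicate and lines through the means of 3 arrays. All CXCR4 probe sets are higher with the inhibitor at day 6, whereas GNA13 is 0.25 higher on 224761_at and 0.57 lower on 206917_at.

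The promoter windows of the 3 receptors with the largest called differences, chosen after their values were seen, are shown because the inhibited enzyme acts on chromatin at gene starts, and unmethylated CpG-rich starts are where Polycomb complexes are best known to sit. Each is the 250 bases upstream of an annotated start on the minus strand (RefSeq, GRCh38.p14), in lower case with CpG dinucleotides in capitals. CXCR4 has 3 annotated windows, of which the one farthest upstream is shown, chr2:136118150-136118399, and the S1PR2 window is chr19:10231332-10231581 and the GPR183 window chr13:99307400-99307649.
CXCR4: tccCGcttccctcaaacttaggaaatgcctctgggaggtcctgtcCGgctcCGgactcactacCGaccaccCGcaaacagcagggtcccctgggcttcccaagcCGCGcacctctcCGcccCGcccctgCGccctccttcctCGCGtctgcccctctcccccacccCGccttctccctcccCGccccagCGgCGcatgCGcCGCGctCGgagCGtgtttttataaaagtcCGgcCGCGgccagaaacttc
S1PR2: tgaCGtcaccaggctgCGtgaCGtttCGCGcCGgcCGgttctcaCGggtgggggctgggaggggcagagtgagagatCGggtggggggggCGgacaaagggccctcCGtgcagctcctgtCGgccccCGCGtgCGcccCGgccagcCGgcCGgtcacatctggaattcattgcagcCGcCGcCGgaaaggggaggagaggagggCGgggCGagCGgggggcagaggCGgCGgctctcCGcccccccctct
GPR183: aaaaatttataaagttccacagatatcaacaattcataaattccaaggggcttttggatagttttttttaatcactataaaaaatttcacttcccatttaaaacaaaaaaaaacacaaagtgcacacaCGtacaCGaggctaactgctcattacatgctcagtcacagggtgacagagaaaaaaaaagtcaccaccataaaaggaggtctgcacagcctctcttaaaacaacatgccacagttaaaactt

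The CXCR4 window shown held 24 CpG at a GC content of 68%, and 23.7% of the 35116 RefSeq windows of this length held at least as many. The other CXCR4 windows held 12 and 8 CpG, reached by 48.5% and 56.3% of windows, with 0 and 1 GC boxes. S1PR2, which fell, held 27 CpG at 74% GC, a count reached by 17.7% of windows. GPR183, which rose, held only 2 CpG at 34.4% GC, and 85.3% of windows held at least as many. The median window held 11 CpG. The CXCR4 and S1PR2 windows shown each held 3 matches to the GC box GGGCGG on either strand, present in 42.6% of all windows, and GPR183 held none. TATAAA, present in 10.7% of windows, matched in the windows shown of CXCR4 and GPR183 and not of S1PR2, which held 1 match to the palindrome TGACGTCA, found in 1.65% of windows. The forkhead letters GTAAACA and the octamer ATGCAAAT were not in these 3 windows, and are in 2.98% and 1.63% of all windows. Of the other members, GNA13 held 39 and 17 CpG in its windows, S1PR1 18, P2RY8 8 and 5, CXCR5 7, and CCR6 1, 8 and 2. A window was matched for 8 of the 9 genes, all but CCR7. These counts describe letters, and no methylation or binding was measured here.

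GPR183, also called EBI2, rose at day 6, and its call was kept without any 1 array of that day. At days 1, 2 and 3 its 18 arrays lay between 2.29 and 2.73 and the arms overlapped. At day 6 the DMSO arrays read 2.66, 2.54 and 2.67 and the inhibitor arrays 3.23, 3.00 and 3.44, which do not overlap. The difference was 0.60 ± 0.12 (adjusted p = 0.00017). It exceeded the difference at day 1 by 0.695 ± 0.16 (adjusted p = 0.0024). These are levels near the bottom of the table, whose lowest value is 1.72, and RMA gives no call of detection.

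S1PR1, the exit receptor, also lay among the dimmest 40% of genes by mean, as did CXCR4, GPR183, CCR6 and CCR7. Its arrays at day 6 read 2.42, 2.67 and 2.63 in DMSO and 2.95, 2.71 and 2.82 with the inhibitor, with no overlap. The difference of 0.25 ± 0.10 was called (adjusted p = 0.048), after differences of -0.06, -0.04 and 0.02 at days 1, 2 and 3. That call was lost without DMSO replicate 1 (adjusted p = 0.21) or 3 (0.058) and without inhibitor replicate 1 (0.19) or 3 (0.084).

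S1PR2, the receptor that halts migration, moved the other way. At day 1 its arrays read 8.22, 7.94 and 7.88 in DMSO and 7.95, 7.81 and 7.66 with the inhibitor, and the arms overlapped. At day 3 they read 8.05, 8.17 and 8.005 in DMSO and 7.25, 7.33 and 7.64 with the inhibitor. By day 6 the values were 7.94, 8.14 and 8.08 against 7.23, 7.81 and 7.83. All inhibitor arrays lay below all DMSO arrays at days 2, 3 and 6. S1PR2 fell by 0.67 ± 0.14 at day 3 (1.59-fold lower, adjusted p = 0.002) and by 0.43 ± 0.14 at day 6 (1.35-fold lower, adjusted p = 0.017). Differences of -0.21 at day 1 and -0.43 at day 2 were not called (adjusted p = 1 and 0.10). The day 2 difference was called in 2 of 20 alternative fits. In 1 of them the replicate number was a block within each day (limma's adjusted p = 0.019). The day 6 call was lost without inhibitor replicate 1 (difference -0.24, adjusted p = 0.16), the lowest array of its group, or without DMSO replicate 2 (adjusted p = 0.063). A second, dimmer probe set of S1PR2, 208537_at, gave -0.13 and -0.08 at days 3 and 6 and was not called.

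P2RY8, the other receptor that signals through GNA13, rose slightly at day 6. The day 6 arrays read 10.57, 10.52 and 10.43 in DMSO and 10.67, 10.75 and 10.77 with the inhibitor, without overlap. The difference was 0.22 ± 0.08 (adjusted p = 0.038). It was 0.01, 0.00 and 0.07 at the earlier days. In DMSO, P2RY8 at day 6 minus day 1 was 0.32 ± 0.08. This change was not called in limma's main fit, which leaves replicate numbers out (adjusted p = 0.15). It was called once replicate number was fitted as a block over all days. The inhibitor arm rose by 0.53 ± 0.08 from day 1 to day 6 in the main fit (adjusted p = 2.5e-05). The call between arms was lost without DMSO replicate 2 (adjusted p = 0.069) or 3 (0.13) and without inhibitor replicate 2 (0.084) or 3 (0.11).

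GNA13 encodes the shared G protein of this inhibitory arm, and its probe sets did not move together. On the brightest, 224761_at, the day 6 arrays read 12.21, 12.08 and 12.21 in DMSO and 12.43, 12.43 and 12.38 with the inhibitor. These do not overlap, and the difference was 0.25 ± 0.07 (adjusted p = 0.0055). On 206917_at the same arrays read 7.01, 6.83 and 7.09 against 6.67, 6.21 and 6.34, all below DMSO, and the probe set fell by 0.57 ± 0.12 (adjusted p over all probe sets = 0.00091). The third, 227539_at, differed by 0.16 ± 0.12 and was not called (adjusted p = 0.30). No single direction can therefore be given for GNA13, and its mean over the 3 probe sets differed by -0.05 at day 6 (adjusted p = 0.57). The larger difference on 224761_at at day 6 than at day 1, by 0.275 ± 0.10 (adjusted p = 0.039), was lost when any of 7 arrays was left out, with adjusted p of 0.052 to 0.11: DMSO replicate 1 or inhibitor replicate 1, 2 or 3 of day 1, or DMSO replicate 2 or inhibitor replicate 1 or 2 of day 6.

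CXCR5, the follicular receptor, was lower with the inhibitor at days 2 and 6. At day 2 the arrays read 5.56, 5.67 and 5.70 in DMSO and 5.02, 5.30 and 5.39 with the inhibitor, and at day 6 they read 5.35, 5.61 and 5.34 against 5.06, 5.24 and 5.13. Neither pair of groups overlapped. The differences were -0.405 ± 0.11 (adjusted p = 0.044) and -0.29 ± 0.11 (adjusted p = 0.045), and those of -0.14 at day 1 and -0.21 at day 3 were not called. Both calls sat at the threshold. The call at day 2 was lost without any 1 of the 3 DMSO arrays or without inhibitor replicate 1 or 2 (adjusted p of 0.065 to 0.21), and that at day 6 without DMSO replicate 2 (0.21) or inhibitor replicate 1 (0.14) or 3 (0.094). Its other probe set, 206126_at, differed with the opposite sign at day 6, with 4.21, 4.39 and 4.60 in DMSO against 4.98, 4.75 and 5.02, a difference of 0.52 ± 0.24 that was not called (adjusted p = 0.093).

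CCR6 and CCR7 were not called at any day, although all inhibitor arrays lay above DMSO for CCR6 at day 1 and for CCR7 at day 3. CCR6 lay between 2.43 and 3.10 on all arrays, with differences of 0.14, -0.19, -0.16 and -0.20 at days 1, 2, 3 and 6 and overlapping groups at day 6. Its 95% interval at day 6 ran from -0.49 to 0.09. CCR7 lay between 2.66 and 3.09, with differences of 0.05, -0.02, 0.10 and 0.07, and its day 6 interval of -0.13 to 0.28 leaves room for a small change in either direction.

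**Figure D3:**
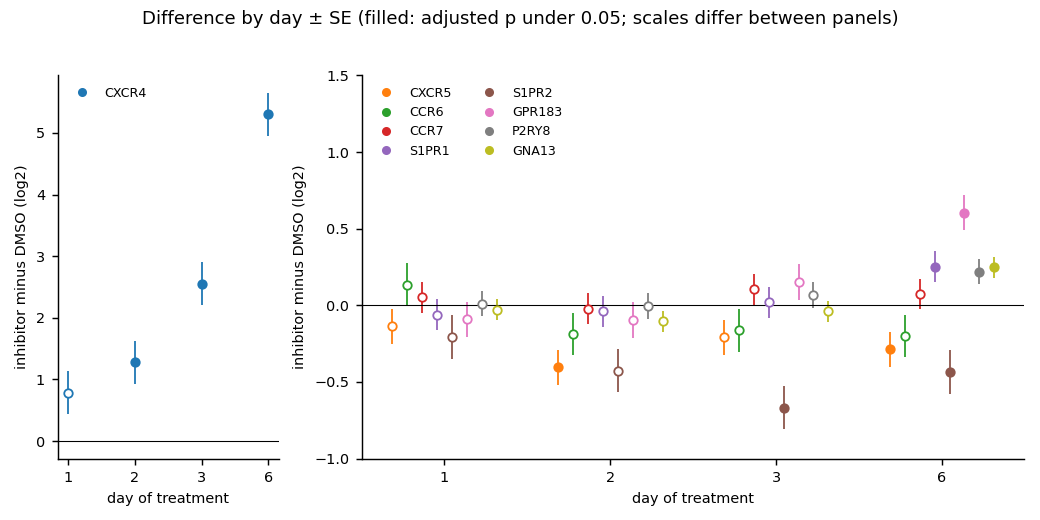
Inhibitor minus DMSO (log2, vertical axes with different scales) at days 1, 2, 3 and 6 for CXCR4 (left) and the other 8 genes (right), with bars of 1 SE and filled points where limma's adjusted p was under 0.05. CXCR4 climbs from 0.79 to 5.30, while the other 8 genes lie between -0.67 and 0.60.

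Counted together, most calls came at day 6, when the share of all genes called was also largest. None of the 9 genes was called at day 1 by limma, with 1 under an unadjusted 0.05, when 0.475% of all genes were called higher and 0.0101% lower. At day 2 CXCR4 was called higher and CXCR5 lower, against 3.57% and 0.824% of all genes. At day 3 CXCR4 was called higher and S1PR2 lower, against 8.64% and 7.65%. At day 6, 5 genes were called higher (CXCR4, S1PR1, GPR183, P2RY8 and GNA13) and 2 lower (CXCR5 and S1PR2), against 18.5% and 26.9% of all genes. Each gene was counted on its brightest probe set. The other probe sets of GNA13 differed by -0.57 (called lower) and 0.16 (not called), and that of CXCR5 by 0.52 (not called). The inhibitor and DMSO arrays did not overlap for 7 of the 9 at day 6, as for 52.2% of all genes. The median difference of the 9 at day 6 was 0.22, and that of all genes -0.11.

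Over time, 3 genes (CXCR4, GPR183 and GNA13) were called for a difference at day 6 larger than at day 1, a contrast in which 26.7% of all genes were called in either direction. Within the inhibitor arm 5 genes rose from day 1 to day 6 (CXCR4, S1PR1, GPR183, P2RY8 and GNA13), where 41% of all genes were called. In the DMSO arm none was called in limma's main fit, with 1 under an unadjusted 0.05, where 0.288% of all genes were called. GNA13 is counted here on its brightest probe set only. Within the inhibitor arm its other probe sets changed by -0.58 (called lower) and 0.04 (not called). Between day 1 and day 6 the inhibitor's difference changed on them by -0.63 (called lower) and 0.12 (not called). The contrasts share arrays, so their calls are not independent of each other.

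Over the 24 arrays, which fall into 8 groups and share one normalization, GPR183 followed CXCR4 most closely of the members, with a Pearson r of 0.74. P2RY8 stood at 0.625, GNA13 at 0.56, S1PR1 at 0.51 and CCR7 at 0.15. CCR6 at -0.44, S1PR2 at -0.53 and CXCR5 at -0.62 ran against it. The spread within groups was also widest for CXCR4, with an SD of 0.49 against 0.07 to 0.19 for the other 8.

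The genes whose values were most like CXCR4 over the 24 arrays were NCOA1, a nuclear receptor coactivator (r = 0.99), EXT1, a heparan sulfate polymerase (0.985), MAPKAPK2, a kinase activated by p38, and AFF1, RESF1 and PHYH (each 0.98). At day 6 their own differences were 1.71 for NCOA1, 2.19 for EXT1, 1.58 for MAPKAPK2, 3.94 for AFF1, 2.89 for RESF1 and 3.75 for PHYH. In all, 713 genes had an r above 0.9 with CXCR4, so this likeness is shared widely. Among the other members called at day 6, 12 genes passed 0.9 with P2RY8, 1 with S1PR2, and 0 with CXCR5, S1PR1, GPR183 or GNA13. The closest to P2RY8 were EVI2B (r = 0.94) and IRAG2 (0.93), the closest to S1PR2 were ASAP1 (0.90) and ARIH2 (0.85), and those closest to GPR183 were LTB4R, a leukotriene B4 receptor (0.86), and NUDT17 (0.85). CXCR5 was followed by KIR2DS4, one of a family of near-identical genes (0.87), and CDH15 (0.835), S1PR1 by JKAMP (0.78) and ZNF441 (0.75), and GNA13 by RNGTT (0.80) and SGSM3 (0.79).

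Around the receptors, 112 of 123 listed genes of their pathways were measured, in 6 lists chosen with earlier results of these data known. For comparison, 18.5% of all genes were called higher and 26.9% lower at day 6. Among ligands and the enzymes and transporters that shape their gradients, 1 of 14 measured genes (7.14%) rose at day 6 and 5 (35.7%) fell, with a list median of -0.205 beside -0.11 for all genes. PLPP3, a phosphatase that degrades S1P outside cells, read 7.75, 7.95 and 7.12 in DMSO and 6.55, 6.36 and 6.03 with the inhibitor, and fell by 1.30 ± 0.25 (adjusted p = 0.00022). SGPP1, which dephosphorylates S1P inside cells, read 10.70, 10.55 and 10.53 against 11.67, 11.44 and 11.58, and rose by 0.97 ± 0.10 (adjusted p = 2.3e-08). Both had been called in these directions at day 3. CXCL12, the ligand of CXCR4, fell by 0.59 ± 0.12 (adjusted p = 0.00024) at a low level, from a mean of 4.80 to 4.21, and CH25H, the enzyme that begins synthesis of the GPR183 ligand, fell by 0.43 ± 0.08 (adjusted p = 0.00021), from 3.07 to 2.64.

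Among 28 measured chemokine, S1P and related receptors outside the 9 genes, 2 (7.14%) rose and 7 (25.0%) fell at day 6, against 18.5% and 26.9% of all genes, with a median of -0.19. CCR1, a receptor for inflammatory CC chemokines, read 3.60, 3.66 and 3.55 in DMSO and 6.73, 4.87 and 6.43 with the inhibitor, and rose by 2.40 ± 0.37 (adjusted p = 1.3e-05). P2RY10, a lysophospholipid receptor of lymphocytes, read 4.59, 4.70 and 4.87 against 6.37, 5.82 and 6.37, and rose by 1.465 ± 0.15 (adjusted p = 5.5e-08). Inhibitor replicate 2 was the lowest of its group for both. CCR2 fell by 0.43 ± 0.15 (adjusted p = 0.022) and GPR132 by 0.39 ± 0.10 (adjusted p = 0.0038), both from low levels of 4.04 and 4.94. Most of the list, 19 of 28, was not called.

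The arm of the attractant receptors, with Gi, Rac and Rap, had 8 of 28 measured genes (28.6%) higher and 5 (17.9%) lower at day 6, against 18.5% and 26.9% of all genes, and a median of 0.005. DOCK8, an exchange factor for CDC42, read 8.37, 8.27 and 8.27 in DMSO against 9.41, 9.35 and 9.26, and rose by 1.035 ± 0.09 (adjusted p = 3.1e-09). RAC2, the Rac protein of blood cells, rose by 0.81 ± 0.12 (adjusted p = 1.2e-05). GNB1, a G protein beta subunit, fell by 0.76 ± 0.06 (adjusted p = 2.1e-09), and the actin bundler LCP1 by 0.73 ± 0.14 (adjusted p = 0.00017).

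Among 17 measured genes that switch receptors off, 4 (23.5%) rose and 5 (29.4%) fell at day 6, near the 18.5% and 26.9% of all genes, with a median of -0.01. GRK5, a kinase that phosphorylates active receptors, read 7.06, 6.93 and 6.47 in DMSO and 8.60, 8.30 and 8.28 with the inhibitor and rose by 1.58 ± 0.14 (adjusted p = 7.2e-09), after 0.74 at day 2 and 1.12 at day 3, both called. GIT2, which acts in receptor traffic, rose by 0.99 ± 0.10 (adjusted p = 1.6e-08), and RGS16, which shortens Gi and Gq signals, by 0.76 ± 0.20 (adjusted p = 0.0041). USP14, a deubiquitinase reported to act on CXCR4, fell by 0.71 ± 0.09 (adjusted p = 9.2e-07).

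Among regulators of these receptors in B cells, 9 of 16 (56.2%) rose and 3 (18.8%) fell at day 6, against 18.5% and 26.9% of all genes, with a median of 0.27. BACH2, a repressor that keeps B cells from plasma cell fate, read 6.12, 5.93 and 6.00 in DMSO and 9.75, 10.04 and 9.85 with the inhibitor and rose by 3.86 ± 0.17 (adjusted p = 1.9e-13). FOXO1, the dark zone transcription factor that is known to drive CXCR4, read 8.58, 8.41 and 8.47 against 10.01, 9.95 and 10.03 and rose by 1.51 ± 0.06 (adjusted p = 1.1e-13). Both were called from day 2 on, FOXO1 with 0.56 and 0.92 and BACH2 with 0.73 and 1.89 at days 2 and 3. STAT3 rose by 1.43 ± 0.23 (adjusted p = 2.2e-05) and TXNIP, a glucose-sensing FOXO target, by 1.11 ± 0.12 (adjusted p = 6.2e-08). KLF2, which drives S1PR1, and CD69, which removes S1PR1 from the surface, were named after their values were seen: KLF2 fell by 0.27 ± 0.10 (adjusted p = 0.025) and CD69 differed by 0.22 ± 0.22 (adjusted p = 0.43).

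All 9 measured light zone and dark zone markers were called at day 6, 4 (44.4%) higher and 5 (55.6%) lower, against 18.5% and 26.9% of all genes, with a median of -0.34. CD86, the costimulatory ligand of light zone cells, rose by 2.85 ± 0.19 (adjusted p = 7.8e-11), CD40 by 1.80 ± 0.17 (adjusted p = 9.8e-09) and BCL2A1 by 1.715 ± 0.26 (adjusted p = 1.2e-05). EGR1, also a light zone gene, fell by 1.51 ± 0.60 (adjusted p = 0.043), with arrays of 9.91, 8.71 and 9.10 in DMSO and 8.02, 8.01 and 7.15 with the inhibitor. CD86 was the only one of these 4 called at day 2, with 1.46. The rest of the list, named after their values were seen, were CD83, a light zone marker that rose by 1.23 ± 0.14 (adjusted p = 2.9e-07), and 4 genes that fell. Of these MYC, which marks light zone cells that received help, fell by 0.73 ± 0.12 (adjusted p = 5e-05). The mitotic genes CCNB1 and AURKA, high in the dark zone, fell by 1.32 ± 0.08 (adjusted p = 3e-11) and 1.12 ± 0.09 (adjusted p = 2e-09), and the polymerase POLH by 0.34 ± 0.10 (adjusted p = 0.011). By zone, 4 of the 6 light zone genes in this list rose and 2 fell, and its 3 dark zone genes fell. CXCR4 and FOXO1, tied to the dark zone above, are outside this list and rose at day 6, by 5.30 and 1.51.

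**Figure D4:**
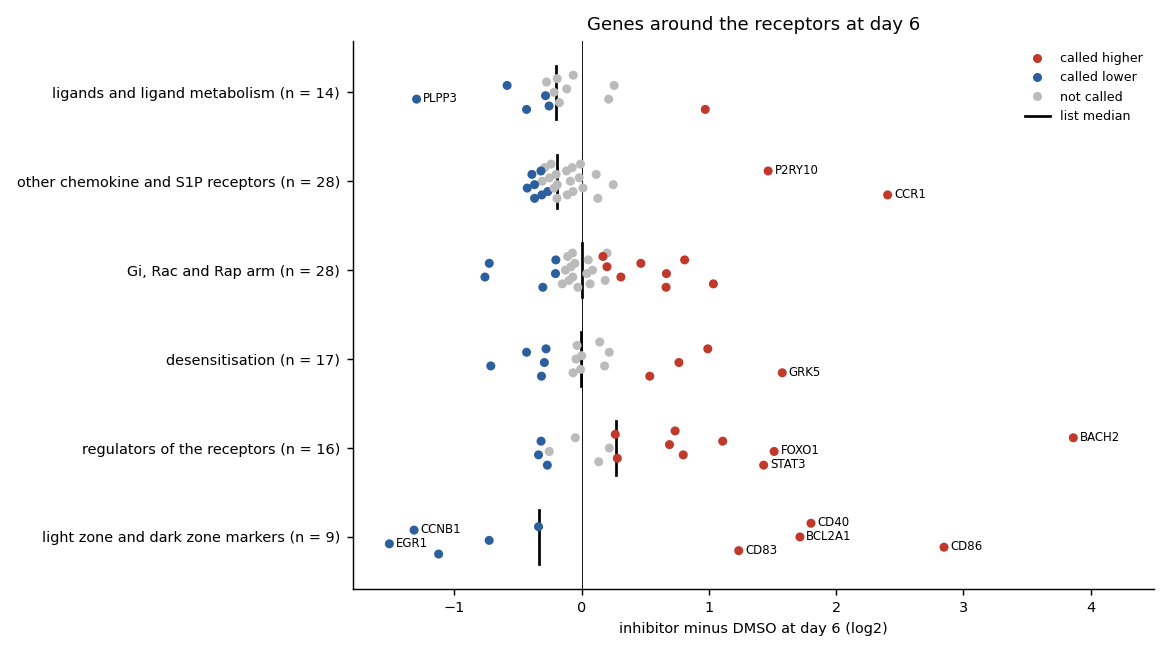
Inhibitor minus DMSO at day 6 (log2, horizontal axis) for every measured gene of the 6 pathway lists, red where called higher, blue where called lower, grey where not called, with a black bar at each list's median and names for the genes farthest from 0. Regulators reach 3.86 at BACH2, the 2 other receptors called higher are CCR1 and P2RY10, and the medians lie between -0.34 and 0.27.

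At day 1 limma called none of the 112 genes in the 6 lists. At day 3 the counts called were 2 of 14 ligand genes, 3 of 28 receptors, 2 of 28 in the Gi, Rac and Rap arm, 2 of 17 desensitisation genes, 7 of 16 regulators and 4 of 9 zone markers, where 8.64% of all genes were called higher and 7.65% lower.

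With 1 exception, no measured marker in the lists of other cell types was called higher at day 6. Myeloid markers summed to 25.52 to 25.74 on the DMSO arrays and 23.93 to 24.40 on the inhibitor arrays at day 6, and 4 of 6 fell. All 6 lay among the dimmest 40% of genes, so these falls are at low levels. T cell markers summed to 36.69 to 37.58 against 35.75 to 36.76, and 1 of 6, CD3D, fell. None of 3 NK cell markers was called by limma. Of 5 stromal, endothelial or epithelial markers, EPCAM fell and PECAM1 rose by 4.20 ± 0.25 (adjusted p = 1e-11), so that their sum went from 24.32 to 24.54 in DMSO to 27.63 to 28.20 with the inhibitor. COL1A1, COL1A2 and KRT8 were not called. B lineage markers summed to 61.43 to 62.06 in DMSO and 63.44 to 63.92 with the inhibitor, with 3 of 6 called higher and none lower. The germinal centre markers summed to 26.67 to 26.83 against 29.42 to 30.23, with CD38 higher by 2.03 ± 0.21 (adjusted p = 6.8e-08), MME by 0.83 ± 0.08 (adjusted p = 7.7e-09) and BCL6 not called. These shares of calls stand beside 18.5% of all genes called higher and 26.9% lower. The part of these markers in the results was not tested.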

How the data were processed

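Total RNA of KARPAS-422 was extracted with Trizol and hybridised to 24 Affymetrix arrays. Log2 expression of 54613 probe sets was deposited. Per the submitters' processing notes, the authors ran RMA in R 2.10.1. The base of the logarithm is not given in the sources used here and was taken as 2 from the range of 1.72 to 14.33. RMA gives no detection calls, and the number of arrays limits the precision. The platform's table listed 42892 probe sets with a gene, of which 41091 have 1 symbol and 1801 several, which were left out. Symbols were updated by Entrez ID for 41037.

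Differences were fitted with limma 3.58.1 in R 4.3.3, with 1 coefficient for each of 8 groups over all 24 arrays. The eBayes step had 16 residual and 5.22 prior degrees of freedom. Tests were 2-sided, with Benjamini-Hochberg adjustment over all genes or all probe sets. The fit was checked on simulated arrays drawn independently, with few genes changed. That check does not cover the spread shared by arrays of equal replicate number. For 3 arrays against 3 the smallest exact permutation p is 0.1, so limma's adjusted p is used. The text names all 9 members, up to 4 called genes of each pathway list with the largest differences at day 6, and the genes of highest correlation (6 for CXCR4, 2 for each other member called at day 6, open reading frames and unnamed loci left out); exceptions are stated. Members, lists and rules were chosen with earlier results of these data known. Alternatives were other scalings, probe set rules, variance models, a dim filter, blocks and left-out arrays. One marker gene and 1 of the fixed pathway lists are not reported here.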

Additional observations from a re-analysis of the deposited data

Results flagged for a closer look

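The inhibitor's difference from DMSO was larger at day 6 than at day 1 for 3 of the 9 genes by a test of that change itself in limma. CXCR4 differed by 4.514 log2 units between the days, and its inhibitor arrays lay above DMSO on both days. For GPR183 the change was 0.695, with overlapping arms at day 1. For GNA13 it was 0.275 on the brightest probe set, while the probe set 206917_at changed by -0.63 (adjusted p over all probe sets = 0.013).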

How the results depend on the processing

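CXCR4 was called higher at days 3 and 6 in all 19 alternatives that kept it in the test (1.54 to 2.79, highest adjusted p = 0.0052, and 4.13 to 5.74, highest adjusted p = 7.2e-06), and so was GPR183 at day 6 (0.49 to 0.72, highest adjusted p = 0.0085). No alternative read another CXCR4 probe set alone, and 209201_x_at was not called at day 3 (0.88, adjusted p over all probe sets = 0.11). Of 700 alternative values for 36 differences by day, 636 kept the call or its absence (a change of sign among values never called is counted here), 59 lost it, 3 gained it and 2 reversed. At day 2 the count of called members, 2, became 1 with array medians subtracted, with only the compared groups fitted or with values recentred on the median gene, all leaving CXCR4, and 0 with every probe set tested or with probe sets averaged. At day 6 the count, 7, became 4 with every probe set tested, 3 with only the compared groups fitted (CXCR4, GPR183 and GNA13) and 4 with probe sets averaged. Leaving out arrays gave 0 to 1 at day 2, 1 to 2 at day 3 and 3 to 6 at day 6. Without the dimmest 40% of genes, which removes CXCR4, GPR183, S1PR1, CCR6 and CCR7 from the test, 1 was called at day 2, 1 at day 3, 4 at day 6, 1 for the effect at day 6 minus day 1, and 2 for the inhibitor arm over time. Day 1 gave 0 in every setting.

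With probe sets averaged, CXCR5 at day 6 reversed to 0.115 (adjusted p = 0.46) and GNA13 to -0.053 at day 6, -0.078 for the effect at day 6 minus day 1 and -0.093 within the inhibitor arm over time; their other probe sets differ in direction. The median gene lay at -0.11 at day 6, and after recentring on it CXCR5 (-0.18, adjusted p = 0.24) and S1PR2 (-0.32, adjusted p = 0.08) lost their calls. Without all arrays numbered 2, S1PR2 at day 3 (adjusted p = 0.12) and GNA13 at day 6 (adjusted p = 0.094) were lost. Equal replicate numbers were not taken as pairs in the main fit. After removal of group means the same-day arrays of number 2 at day 2 correlated at only 0.043. However, 11 of 12 such pairs were above 0.1, and for 23 of 24 arrays the closest array of another group bore the same number. Arrays of equal number thus share part of their spread, which the main fit does not model. With a replicate block over all days, 1 member, P2RY8, was called in DMSO over time (0.32, adjusted p = 0.04) where none was without it, and the counts at days 2 and 6 stayed at 2 and 7. With a replicate block within each day they were 3 and 6, S1PR2 gaining its call at day 2 (adjusted p = 0.019) and S1PR1 losing it at day 6 (adjusted p = 0.087).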
